A study of Mus musculus with 2 samples.

Results

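The levels of 10 genes of flow and force sensing were followed across the endothelium of tumour-draining lymph nodes of mice: Piezo1, Piezo2, Pkd2, Kcnj2, Klf4, Klf6, Ccn1, Ccn2, Ankrd1 and Nos3. They are 10 of the 25815 genes listed in the count tables, and their UMIs (unique molecular identifiers, each 1 captured transcript) were taken by gene name from both libraries. The genes were selected on their summed UMI levels by cell class and genotype in these same libraries, so those levels and ratios are given as a description, with no test. The first library was labelled ATG5 KO and came from 9 pooled inguinal nodes of mice that the study's title calls ATG5LEC-KO, a knockout of the autophagy gene Atg5 named for the lymphatic endothelial cell (LEC). The second was labelled WT and came from 13 pooled inguinal nodes of wild type mice. In both, viable CD31+ CD45- Ter119- endothelial cells and viable CD45+ CD31- Ter119- immune cells were sorted and mixed, so cell shares are set by the sort. The labels give no age, no tumour line and no driver of the knockout. With 1 library per genotype no difference has a replicate check, and every interval below is a 95% interval for counting error only.

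Endothelial cells sense the flow of blood or lymph through stretch-gated and shear-gated membrane proteins. Piezo1 and Piezo2 are mechanically gated cation channels, Pkd2 encodes polycystin-2, a calcium-permeable channel, and Kcnj2 encodes Kir2.1, an inward-rectifier potassium channel activated by shear in blood endothelium. Klf4 and Klf6 encode Krüppel-like transcription factors, and Klf4, like Klf2, is induced by steady laminar flow. Ccn1 and Ccn2 (formerly Cyr61 and Ctgf) encode secreted matricellular proteins and, with Ankrd1, are standard target genes of the Hippo effectors YAP and TAZ, which act on DNA through TEAD factors. Nos3 encodes the endothelial nitric oxide synthase, which shear activates. Klf4, Klf6 and Ccn1 are also immediate early genes, which are induced when tissue is handled or digested. In a lymph node, lymph enters the subcapsular sinus, lined by ceiling LECs on the outside and floor LECs on the inside, and leaves through cortical and medullary sinuses. Blood passes through arterioles, capillaries and high endothelial venules (HEVs), where lymphocytes enter.

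Promoters are shown for Ccn1 and Klf4, which had like patterns over classes, and for Ankrd1, a target of the same pathway as Ccn1 that was almost absent. Whether their letters bear on the levels was not tested. RefSeq promoters (build GRCm38.p6, 250 bases before to 50 bases after the start) matched 7 of the 10 genes. Both strands of the windows were searched. The TEAD letters were GGAATG. The AP-1 motif was written TGANTCA. For the cyclic AMP response element (CRE) the letters TGACGTCA were used. The TATA box was searched as TATAAA. For Krüppel-like factors the letters were CCACCC. CArG box and NF-kappaB motifs were searched too. Capitals mark the matches in the sequences of the promoters of Ccn1, Ankrd1 and Klf4.
Ccn1, chr3:145649936-145650235, minus strand: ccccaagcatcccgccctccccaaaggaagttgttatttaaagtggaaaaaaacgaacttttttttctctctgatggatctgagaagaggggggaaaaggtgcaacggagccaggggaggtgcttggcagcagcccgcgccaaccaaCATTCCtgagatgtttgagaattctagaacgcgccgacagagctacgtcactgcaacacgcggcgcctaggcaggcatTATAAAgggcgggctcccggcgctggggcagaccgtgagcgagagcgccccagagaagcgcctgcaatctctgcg
Ankrd1, chr19:36119795-36120094, minus strand: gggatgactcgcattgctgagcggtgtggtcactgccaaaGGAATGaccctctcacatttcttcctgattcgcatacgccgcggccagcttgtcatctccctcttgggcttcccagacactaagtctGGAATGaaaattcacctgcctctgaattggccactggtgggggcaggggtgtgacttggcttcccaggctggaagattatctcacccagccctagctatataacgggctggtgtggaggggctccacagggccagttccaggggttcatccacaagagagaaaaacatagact
Klf4, chr4:55532426-55532725, minus strand: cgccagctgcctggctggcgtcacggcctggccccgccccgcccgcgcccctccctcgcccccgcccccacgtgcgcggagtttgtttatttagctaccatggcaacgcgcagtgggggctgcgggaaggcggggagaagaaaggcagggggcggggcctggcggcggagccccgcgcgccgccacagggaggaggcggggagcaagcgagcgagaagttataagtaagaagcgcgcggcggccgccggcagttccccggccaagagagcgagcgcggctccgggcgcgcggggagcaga
The Ccn1 window held 1 TEAD match, at position -103 from the start and on the other strand (CATTCC), and a TATAAA at -25. The Ankrd1 window held 2 TEAD matches, at -210 and -123. The Klf4 window held none of the motifs searched, nor did those of Klf6 and Kcnj2. The Pkd2 window held a TEAD match at -43 and the Piezo1 window a TATAAA at -24. Among 32851 promoters of the same length, 14.7% held the TEAD letters, 13.6% TATAAA, 7.81% AP-1, 1.79% CRE, 31.5% KLF, 1.63% a CArG box and 8.46% NF-kappaB. A match is a run of letters, not a site shown to be used, and none of the matches overlapped another.

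The library labelled ATG5 KO held 23089918 UMIs and the WT library 23649554. From them 4130 and 3846 cells were kept, with median depths of 3353.5 and 3518 UMIs. LEC-like cells, named for their lymphatic markers, numbered 213 in the KO-labelled library and 717 in WT, and blood endothelial (BEC-like) cells 502 and 629. Prox1, the lymphatic master factor, had 1331 and 1320 CPM in LECs and 10.2 and 6.07 CPM in BECs, where CPM are UMIs per 1000000 of the class with mitochondrial genes left out. The 2 libraries shared 14 cell barcodes. The LEC-like cells differed in makeup: medullary or paracortical-like cells were 40.4% of them in the KO-labelled library and 6.56% in WT, ceiling-like cells 22.1% and 46.9%, and floor-like cells 3.76% (8 cells) and 19.7% (141 cells). Mitochondrial genes took 10.4% of LEC UMIs in the KO-labelled library and 7.24% in WT, and male cells were 50.9% and 71.3% of the LECs whose sex could be called. Atg5 transcript itself was at 44.1 CPM in KO-labelled LECs and 40.8 CPM in WT LECs. The labels do not say which exon was deleted, and a transcript counted elsewhere does not check the label.

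Piezo1 (GRCm38, chromosome 8, 122481698 to 122551329) was found at like levels across the endothelium, with a low point in floor-like LECs. The channel transcript stood at 94.4 CPM (79.9 to 111) in KO-labelled LECs and 123 CPM (114 to 132) in WT LECs, and at 123 and 142 CPM in BECs. The LEC ratio of the KO-labelled library over WT was 0.768 (0.639 to 0.917), and it passed 1.5-fold, at 0.63, in cells with at most 10% mitochondrial UMIs and, at 0.617, without the 5 LEC sub-clusters of mostly WT cells. Over the LEC classes of the KO-labelled library it ran between 60.5 CPM in floor-like and 130 CPM in Duox2-like cells. In WT it ran between 26.6 CPM (17.8 to 38.2) in floor-like and 164 CPM (124 to 213) in Duox2-like cells. The WT floor-like value lay below every other endothelial class of that library and at the level of B cells, which gave 28.3 CPM in the KO-labelled library and 30.8 CPM in WT. Venous-like BECs stood highest, at 208 CPM (125 to 325) and 263 CPM (204 to 334). The other BEC classes lay between them and the floor-like cells with intervals that overlapped, so their order is not resolved at this depth. Overlapping transcripts of Ctu2 on the opposite strand gave at most 32 UMIs in the LECs or BECs of a library, against 150 or more for Piezo1.

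Piezo2, the related channel known from touch receptors, was high in tip-like blood endothelium and, among LECs, in the medullary or paracortical-like, the unnamed and the KO-labelled cycling and Duox2-like cells. In tip-like BECs, which carry the sprouting markers Esm1, Apln and Angpt2, it reached 561 CPM (508 to 618) in the KO-labelled library and 516 CPM (459 to 578) in WT. At a common depth of 3000 UMIs per cell, 68.8% and 67.9% of these cells had a Piezo2 UMI. At their own depth the shares were 72.2% and 78.1%, against 0.525% and 0.386% of B cells. B cells were shallower, with median depths of 2697 and 2682 UMIs against 6127 and 6305 in tip-like BECs. Interferon-like, cycling and unnamed BECs gave 323, 363 and 380 CPM in the KO-labelled library and 410, 271 and 380 CPM in WT. The unnamed sub-cluster led by Lrmda, Nav3 and Stab2 had 571 and 664 CPM, as high as the tip-like class. Arterial-like BECs were at 11.6 CPM (0.293 to 64.5) and 30.2 CPM (9.81 to 70.5), and venous-like BECs at 21.9 and 54.9 CPM. Among LECs, medullary or paracortical-like cells had 195 CPM (165 to 230) in the KO-labelled library and 137 CPM (103 to 179) in WT, and the unnamed LECs 227 CPM (167 to 300) and 72.5 CPM (54.8 to 94.2). Cycling LECs had 140 CPM (74.6 to 240) in the KO-labelled library and 22.4 CPM (10.7 to 41.2) in WT, on 12 and 43 cells, a ratio of 6.25 (2.53 to 15.9). Duox2-like LECs had 112 CPM in the KO-labelled library and 23.4 CPM in WT, on 18 and 8 UMIs. Ceiling-like cells had 12.5 and 13.3 CPM. Not one Piezo2 UMI was found in the 8 KO-labelled or the 141 WT floor-like LECs, which allows up to 45.4 CPM in the first and 2.75 CPM in the second (3 counts over the class).

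The LEC total of Piezo2 was 143 CPM (125 to 163) in the KO-labelled library and 28.6 CPM (24.4 to 33.3) in WT, a ratio of 4.99 (4.07 to 6.14). Medullary or paracortical-like cells supplied 63.4% of those UMIs in the KO-labelled library and 33.3% in WT. Inside that class the ratio was 1.42 (1.04 to 1.98), and it was 0.781 among its male cells. In ceiling-like cells, on 4 and 36 UMIs, it was 0.942 (0.244 to 2.63), but 3.87 with clusters made without the members and immediate early genes and 4.73 at Leiden resolution 2. In Duox2-like LECs (22 and 41 cells) it was 4.77 (1.97 to 12.7) on 18 and 8 UMIs. In the unnamed LECs it was 3.12 (2.08 to 4.68), where 1 WT cell held 46.4% of that library's UMIs. Averaged over the 3 niche classes with at least 20 cells in both libraries, the ratio was 1.86, and without the 5 LEC sub-clusters of mostly WT cells it was 3.02. In BECs as a whole it was 1.25 (1.13 to 1.37), with 0.539 (0.281 to 0.976) in HEV-like cells and 1.09 (0.935 to 1.27) in tip-like cells. In capillary-like cells it was 0.280 (0.0735 to 0.765) on 4 and 49 UMIs, and 0.849 at Leiden resolution 2.

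Kcnj2 (chromosome 11, 111066164 to 111076821) was highest in 1 class of LECs and 1 class of BECs. Floor-like LECs had 166 CPM (83.0 to 298) in the KO-labelled library and 409 CPM (372 to 448) in WT. Tip-like BECs had 467 CPM (418 to 519) and 330 CPM (285 to 380). Most of these UMIs lay in 1 of their 2 sub-clusters. The one led by Abcc9 and Esm1 had 559 and 461 CPM, on 317 and 160 UMIs. The one led by Chga and Apln had 143 and 133 CPM, on 23 and 31 UMIs. All other LEC classes lay at 9.38 CPM or less in the KO-labelled library and 11.7 CPM or less in WT, with no UMI in KO-labelled Duox2-like, cycling and unnamed LECs or in WT medullary or paracortical-like LECs. Arterial-like BECs came next at 92.6 CPM (40.0 to 183) and 103 CPM (59.9 to 165), and HEV-like BECs were low at 11.5 and 6.41 CPM. B cells had 0.497 and 0.299 CPM. Kcnj2 was among the variable genes that made the clusters, and clusters made without the members and immediate early genes still gave 1 tip-like and 1 floor-like cluster with Kcnj2 in their top 10 genes. Floor-like cells supplied 11 of 15 Kcnj2 UMIs of KO-labelled LECs and 446 of 481 of WT LECs.

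The LEC total of Kcnj2 was 9.44 CPM (5.28 to 15.6) in the KO-labelled library and 83.5 CPM (76.2 to 91.3) in WT, a ratio of 0.113 (0.0628 to 0.188). Inside floor-like cells the ratio was 0.407 (0.202 to 0.735), on 8 KO-labelled cells, of which 1 held 36.4% of the UMIs. Without the 5 LEC sub-clusters that held under 10 KO-labelled cells and at least 20 WT cells, floor-like cells among them, the LEC ratio was 0.598. In BECs the direction was the opposite, with 165 CPM (150 to 181) in the KO-labelled library and 90.0 CPM (79.5 to 101) in WT, a ratio of 1.83 (1.57 to 2.14). Tip-like cells were 22.9% of BECs in the KO-labelled library and 15.3% in WT. Inside tip-like cells the ratio was 1.42 (1.18 to 1.70), and inside their sub-clusters led by Abcc9 and Esm1 and by Chga and Apln it was 1.21 (0.998 to 1.47) and 1.07 (0.596 to 1.90).

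Pkd2 (chromosome 5, 104459450 to 104505819) was even. It had 86.9 CPM (73.0 to 103) in KO-labelled LECs and 83.1 CPM (75.8 to 90.9) in WT LECs, and the BEC ratio was 1.02 (0.856 to 1.21). Over the 14 endothelial classes it ran between 65.1 and 175 CPM in the KO-labelled library and between 43.9 and 126 CPM in WT, and B cells had 0.497 and 1.79 CPM. It was higher in KO-labelled Duox2-like LECs, at 124 CPM (75.9 to 192) against 43.9 CPM (24.6 to 72.5) in WT cells, on 20 and 15 UMIs. In the unnamed LECs the ratio was 1.71 (1.07 to 2.67). In interferon-like BECs it was 1.83 (57 and 14 UMIs), and 0.785 at Leiden resolution 2.

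**Figure D1:**
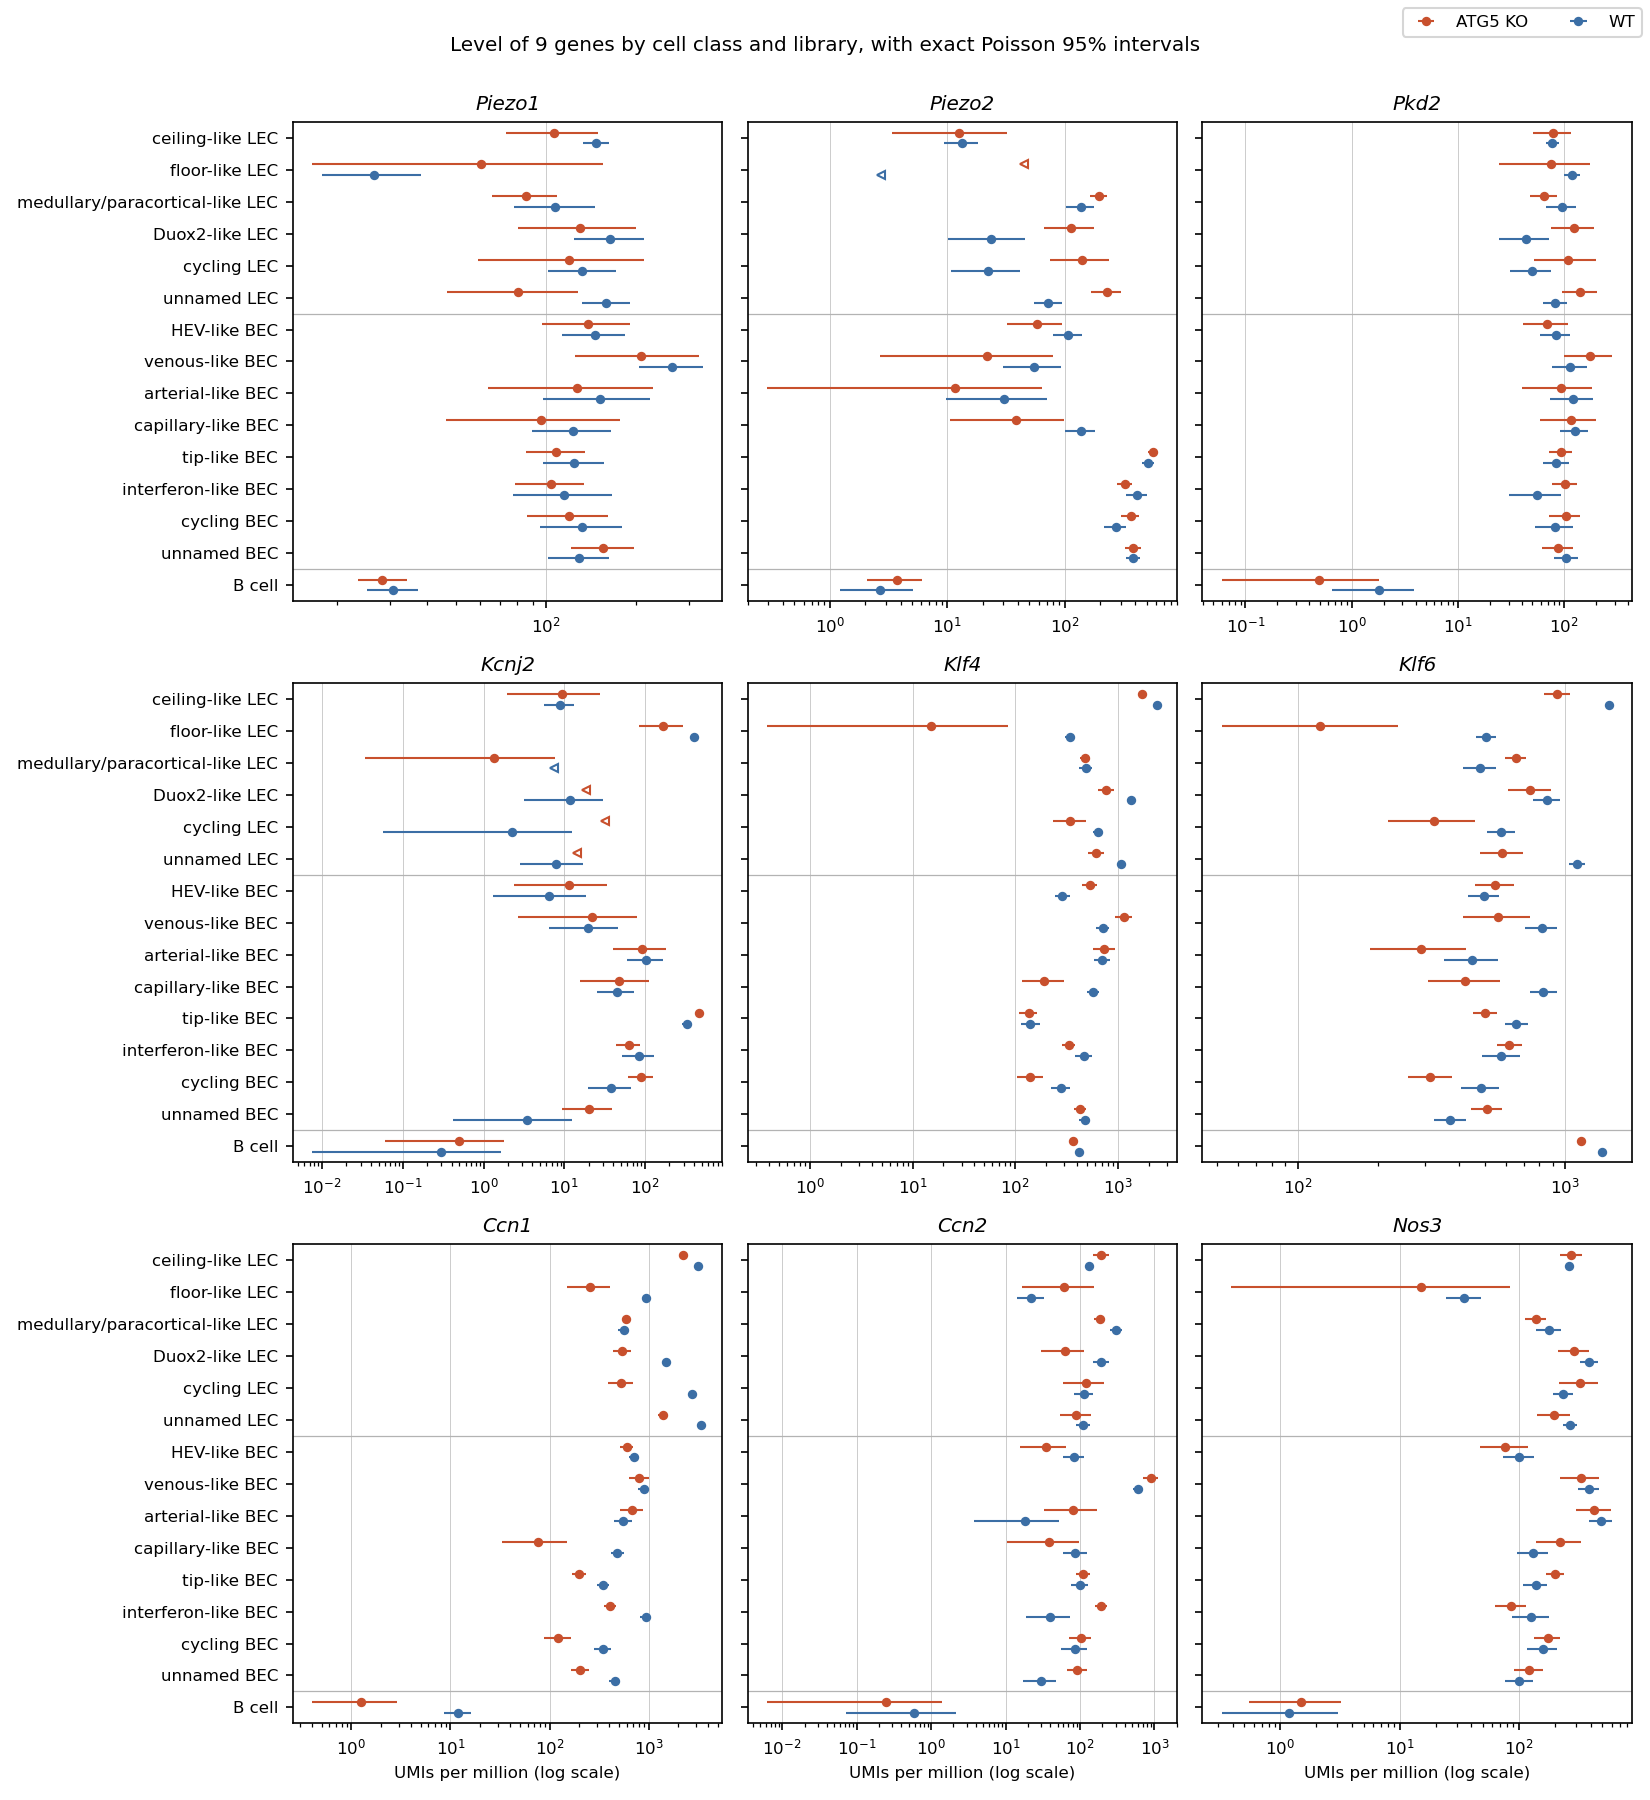
Level of each of 9 genes (UMIs per 1000000 of the class, log axis) in 14 endothelial classes and in B cells, with the library labelled ATG5 KO (red-orange) above WT (blue) in each row. Points carry exact Poisson 95% intervals, open triangles give the limit of 3 counts where no UMI was found, and Kcnj2 stands out in floor-like LECs (166 and 409 CPM) and tip-like BECs (467 and 330 CPM).

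Klf4 (chromosome 4, 55527143 to 55532466) was highest in ceiling-like LECs, at 1710 CPM (1570 to 1860) in the KO-labelled library and 2387 CPM (2330 to 2446) in WT. One cell held 27.8% of the KO-labelled UMIs there. The level was uneven over the ceiling-like sub-clusters that held KO-labelled cells. The one led by Cd24a had 5711 CPM (7 cells) in the KO-labelled library and 3162 CPM (114 cells) in WT. The one led by Mmp13 and Ackr4 had 1391 and 797 CPM, and the one led by Ankrd1, Bmp6 and Vldlr 373 and 656 CPM. In WT the latter lay below the unnamed LECs, at 1084 CPM, as did the Mmp13- and Ackr4-led one. Marker scores of the Cd24a-led and the Ankrd1-, Bmp6- and Vldlr-led sub-clusters, 0.47 and 0.42, were close to the 0.4 needed for a name. All Ankrd1 UMIs of the Ankrd1-, Bmp6- and Vldlr-led one lay in 1 KO-labelled cell. Klf4, Klf6 and Ccn1 were among the variable genes that made the LEC clusters. Medullary or paracortical-like LECs had 479 CPM (430 to 532) and 485 CPM (419 to 558), and Duox2-like LECs 776 and 1353 CPM. Floor-like LECs were lowest among WT LECs at 343 CPM (309 to 379), and the 8 KO-labelled floor-like cells had 1 UMI. Among BECs, venous-like cells (1140 and 718 CPM) and arterial-like cells (741 and 707 CPM) stood above tip-like cells (135 and 141 CPM), with 51.0% of the KO-labelled venous-like UMIs in 1 cell. LECs exceeded BECs 2.31-fold (2.11 to 2.53) in the KO-labelled library and 3.70-fold (3.49 to 3.94) in WT. Klf4 was not particular to endothelium, with 1510 and 1078 CPM in monocytes or macrophages and 366 and 421 CPM in B cells.

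Klf6 (chromosome 13, 5861482 to 5870394) was present in all classes and was not particular to endothelium: B cells had 1144 and 1374 CPM and CD4 T cells 1529 and 1834 CPM. Among LECs it was highest in ceiling-like cells, at 932 CPM (829 to 1044) in the KO-labelled library and 1454 CPM (1409 to 1500) in WT. Their sub-clusters were uneven here too, with 2292 and 2101 CPM in the Cd24a-led one (7 and 114 cells). The Mmp13- and Ackr4-led one had 857 and 577 CPM and the Ankrd1-, Bmp6- and Vldlr-led one 446 and 763 CPM, beside 580 and 1109 CPM in unnamed LECs. Medullary or paracortical-like LECs had 654 CPM (597 to 715) and 480 CPM (414 to 552). BEC classes ran between 289 and 618 CPM in the KO-labelled library and between 371 and 828 CPM in WT. LECs exceeded BECs 1.34-fold (1.23 to 1.45) and 1.84-fold (1.75 to 1.95).

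Both factors were lower in KO-labelled LECs as a whole. Klf4 had 748 CPM (707 to 792) in the KO-labelled library and 1497 CPM (1466 to 1529) in WT, a ratio of 0.50 (0.470 to 0.531). Klf6 had 667 CPM (628 to 709) and 1057 CPM (1031 to 1084), a ratio of 0.631 (0.591 to 0.674). The difference was uneven over niches. In medullary or paracortical-like cells the Klf4 ratio was 0.989 (0.827 to 1.18) and the Klf6 ratio 1.36 (1.15 to 1.62). In ceiling-like cells they were 0.716 (0.655 to 0.782) and 0.641 (0.568 to 0.721), but the sub-clusters of that class were unequally filled: the one led by Plat held 0 KO-labelled and 86 WT cells, and the one led by Cd24a 7 and 114. Leiden resolution 2 gave a cluster named collecting-like (3 and 32 cells), as did clusters made without the members and immediate early genes (5 and 20 cells). Ccdc141 and Lif were among the leading genes of both and of the Cd24a-led sub-cluster. Whether the ceiling-like class holds collecting-like cells was not tested. The 2 ceiling-like sub-clusters with at least 20 cells in both libraries went opposite ways. In the one led by Mmp13 and Ackr4, with 20 and 100 cells, the Klf4 ratio was 1.74 (1.47 to 2.07) and the Klf6 ratio 1.48 (1.19 to 1.84). In the one led by Ankrd1, Bmp6 and Vldlr, with 20 and 36 cells, they were 0.569 (0.406 to 0.785) and 0.585 (0.430 to 0.786). Duox2-like LECs had 0.573 (0.467 to 0.70) and 0.864 (0.692 to 1.07), and unnamed LECs 0.570 (0.471 to 0.686) and 0.523 (0.43 to 0.633). Among male cells alone the LEC ratios were 0.724 for Klf4 and 0.787 for Klf6, short of 1.5-fold, and among female cells 0.347 and 0.503. In cells with at most 10% mitochondrial UMIs the Klf6 ratio was 0.685, also short of 1.5-fold. Weighting the 3 niche classes equally gave 0.741 and 0.911. Without the 5 LEC sub-clusters of mostly WT cells the LEC ratios were 0.677 for Klf4 and 0.830 for Klf6, again short of 1.5-fold. The ceiling-like ratios depended on how cells were clustered: they were 0.441 for Klf4 and 0.410 for Klf6 with clusters made without the members and immediate early genes. Among male ceiling-like cells the Klf4 ratio was 1.07.

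In BECs Klf4 had 324 CPM in the KO-labelled library and 404 CPM in WT, a ratio of 0.802 (0.734 to 0.876), and Klf6 had 498 and 574 CPM. HEV-like cells went the other way for Klf4, at 534 CPM (449 to 631) in KO-labelled and 289 CPM (242 to 341) in WT cells. Capillary-like cells, 24 and 87 in number, had 192 CPM (117 to 297) and 574 CPM (498 to 658). In their Lpl- and Car4-led sub-cluster alone (23 and 59 cells) the Klf4 ratio was 0.395 (0.233 to 0.635), while the class gave 0.66 at Leiden resolution 2. All 37 immediate early genes measured in capillary-like cells were lower too, with a median log2 ratio of -2.36 against -0.06 for all genes, and their part in the Klf4 value was not tested.

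Ccn1 (chromosome 3, 145646976 to 145649981) was higher in LECs than in BECs. LECs exceeded BECs 3.28-fold (3.01 to 3.57) in the KO-labelled library and 4.46-fold (4.24 to 4.70) in WT. Ceiling-like LECs had 2211 CPM (2051 to 2380) in the KO-labelled library and 3146 CPM (3080 to 3214) in WT, and medullary or paracortical-like LECs 589 CPM (535 to 647) and 562 CPM (491 to 640). Floor-like LECs had 257 CPM (150 to 412) and 937 CPM (881 to 997). The unnamed LECs had 1383 CPM (1229 to 1550) and 3391 CPM (3263 to 3524), above the ceiling-like level in WT. Among BECs it ran between 76.9 CPM in capillary-like and 801 CPM in venous-like cells of the KO-labelled library, and between 344 CPM in cycling and 935 CPM in interferon-like cells of WT. B cells had 1.24 CPM (0.404 to 2.90) in the KO-labelled library and 11.9 CPM (8.53 to 16.3) in WT, and barcodes of at most 100 UMIs, which hold free RNA, 104 and 474 CPM.

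The Ccn1 level was lower in the KO-labelled library in LECs, at 999 CPM (950 to 1049) against 2454 CPM (2414 to 2495) in WT, a ratio of 0.407 (0.386 to 0.429). It was 0.198 among female and 0.615 among male cells, and 0.642 as the mean over the 3 niche classes. Medullary or paracortical-like LECs had a ratio of 1.05 (0.890 to 1.24), and the Mmp13- and Ackr4-led ceiling-like sub-cluster had 1996 CPM in KO-labelled and 1802 CPM in WT cells. The ceiling-like sub-cluster led by Ankrd1, Bmp6 and Vldlr had 2034 CPM in KO-labelled and 3541 CPM in WT cells, a ratio of 0.574 (0.50 to 0.659), and unnamed LECs had a ratio of 0.408 (0.360 to 0.460). Duox2-like LECs had 540 CPM (433 to 666) in KO-labelled and 1503 CPM (1376 to 1639) in WT cells, and 1 cell held 57.5% of the KO-labelled UMIs. In BECs the ratio was 0.554 (0.508 to 0.603). It was under 1 in all 5 BEC classes with at least 20 cells in both libraries and a name: 0.842 (0.692 to 1.02) in HEV-like, 0.159 (0.0675 to 0.320) in capillary-like, 0.572 (0.459 to 0.711) in tip-like, 0.435 (0.361 to 0.525) in interferon-like (0.845 at Leiden resolution 2) and 0.355 (0.244 to 0.508) in cycling cells. In the Lpl- and Car4-led capillary-like sub-cluster (23 and 59 cells) it was 0.291 (0.121 to 0.605), the other holding 1 KO-labelled and 28 WT cells.

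Ccn2 (chromosome 10, 24595442 to 24598683) had another distribution than its relative. Venous-like BECs were highest, at 888 CPM (705 to 1104) in the KO-labelled library (15 cells) and 608 CPM (516 to 711) in WT (42 cells). Next in WT were medullary or paracortical-like LECs at 307 CPM (255 to 367), which had 186 CPM (156 to 220) in the KO-labelled library. WT floor-like LECs had 22.0 CPM (14.1 to 32.7). LECs and BECs as a whole did not separate, with LEC over BEC ratios of 1.10 (0.928 to 1.29) in the KO-labelled library and 1.07 (0.939 to 1.22) in WT. The LEC total was 153 CPM (134 to 173) in the KO-labelled library and 123 CPM (114 to 132) in WT, a ratio of 1.25 (1.07 to 1.44). That sign did not describe the niches, since the ratio was 0.605 (0.471 to 0.778) in medullary or paracortical-like cells, 0.321 (0.147 to 0.628) in Duox2-like cells and 1.47 (1.10 to 1.93) in ceiling-like cells. Among ceiling-like sub-clusters the Mmp13- and Ackr4-led one had 1.01 (0.555 to 1.74) and the Ankrd1-, Bmp6- and Vldlr-led one 0.572 (0.341 to 0.929), while the Cd24a-led one, with 7 KO-labelled cells, had 2.41 (1.49 to 3.73). The LEC ratio was 1.52 with each cell weighted equally, 0.858 among male cells and 0.658 as the mean over the 3 niche classes. Among male cells it was 0.184 in medullary or paracortical-like and 2.02 in ceiling-like cells. Fibroblasts are also known to express Ccn2, and fibroblast markers summed to 140 CPM (5 of 8 genes found) in KO-labelled and 61.1 CPM (7 of 8) in WT LECs, with Lum at 0 in both, and their part in the LEC totals was not tested. In interferon-like BECs Ccn2 had 193 CPM (158 to 233) in KO-labelled and 39.8 CPM (19.1 to 73.2) in WT cells, and the ratio was 4.13 (1.98 to 9.42) in the sub-cluster that both libraries filled (46 and 58 cells). The other sub-cluster of that class, led by Cxcl9, held 57 KO-labelled cells and 1 WT cell. Unnamed BECs had 92.2 CPM in KO-labelled and 29.6 CPM in WT cells, a ratio of 3.11 (1.73 to 5.84), and their Ccl5-led sub-cluster one of 5.58 (2.07 to 18.8) on 23 and 5 UMIs. Mural cell markers summed to 41.1 CPM (2 of 8 genes found) in KO-labelled and 7.96 CPM (1 of 8) in WT interferon-like BECs, with Acta2, Myh11 and Cspg4 at 0 in both. All 8 fibroblast markers were at 0 in interferon-like BECs, and the part of mural RNA in the Ccn2 values was not tested. The opposite-strand Gm15270, which overlaps Ccn2, had 11 and 42 UMIs in LECs and 22 and 19 in BECs.

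Ankrd1 (chromosome 19, 36111961 to 36120099) was nearly absent. The KO-labelled library held 13 UMIs, all in 1 ceiling-like LEC, and the WT library 3 UMIs in 3 barcodes. No UMI was found in 502 KO-labelled or 629 WT BECs, which allows up to 1.14 CPM in the first and 1.01 CPM in the second (3 counts). The single cell was enough to put Ankrd1 first among the genes of its sub-cluster, so no level by class or genotype is drawn from it.

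Nos3 (chromosome 5, 24364810 to 24384474) was highest in arterial-like BECs, at 428 CPM (302 to 591) in the KO-labelled library and 490 CPM (389 to 608) in WT. Venous-like BECs (329 and 384 CPM) and Duox2-like LECs (292 and 387 CPM) had intervals that overlapped the arterial ones. Ceiling-like LECs had 275 CPM (221 to 339) and 265 CPM (246 to 285), medullary or paracortical-like LECs 138 and 177 CPM, and HEV-like BECs 76.8 and 100 CPM. WT floor-like LECs had 34.8 CPM (24.6 to 47.8), the lowest of the 14 classes of that library, and the 8 KO-labelled floor-like cells had 1 UMI. The LEC level was 195 CPM (174 to 218) in the KO-labelled library and 221 CPM (209 to 233) in WT, a ratio of 0.884, and the BEC ratio was 0.964 (0.844 to 1.10). Tip-like BECs had 202 CPM (170 to 237) in KO-labelled and 138 CPM (109 to 172) in WT cells. The opposite-strand neighbours Atg9b and Gm15587 had at most 10 UMIs in LECs or BECs of a library.

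**Figure D2:**
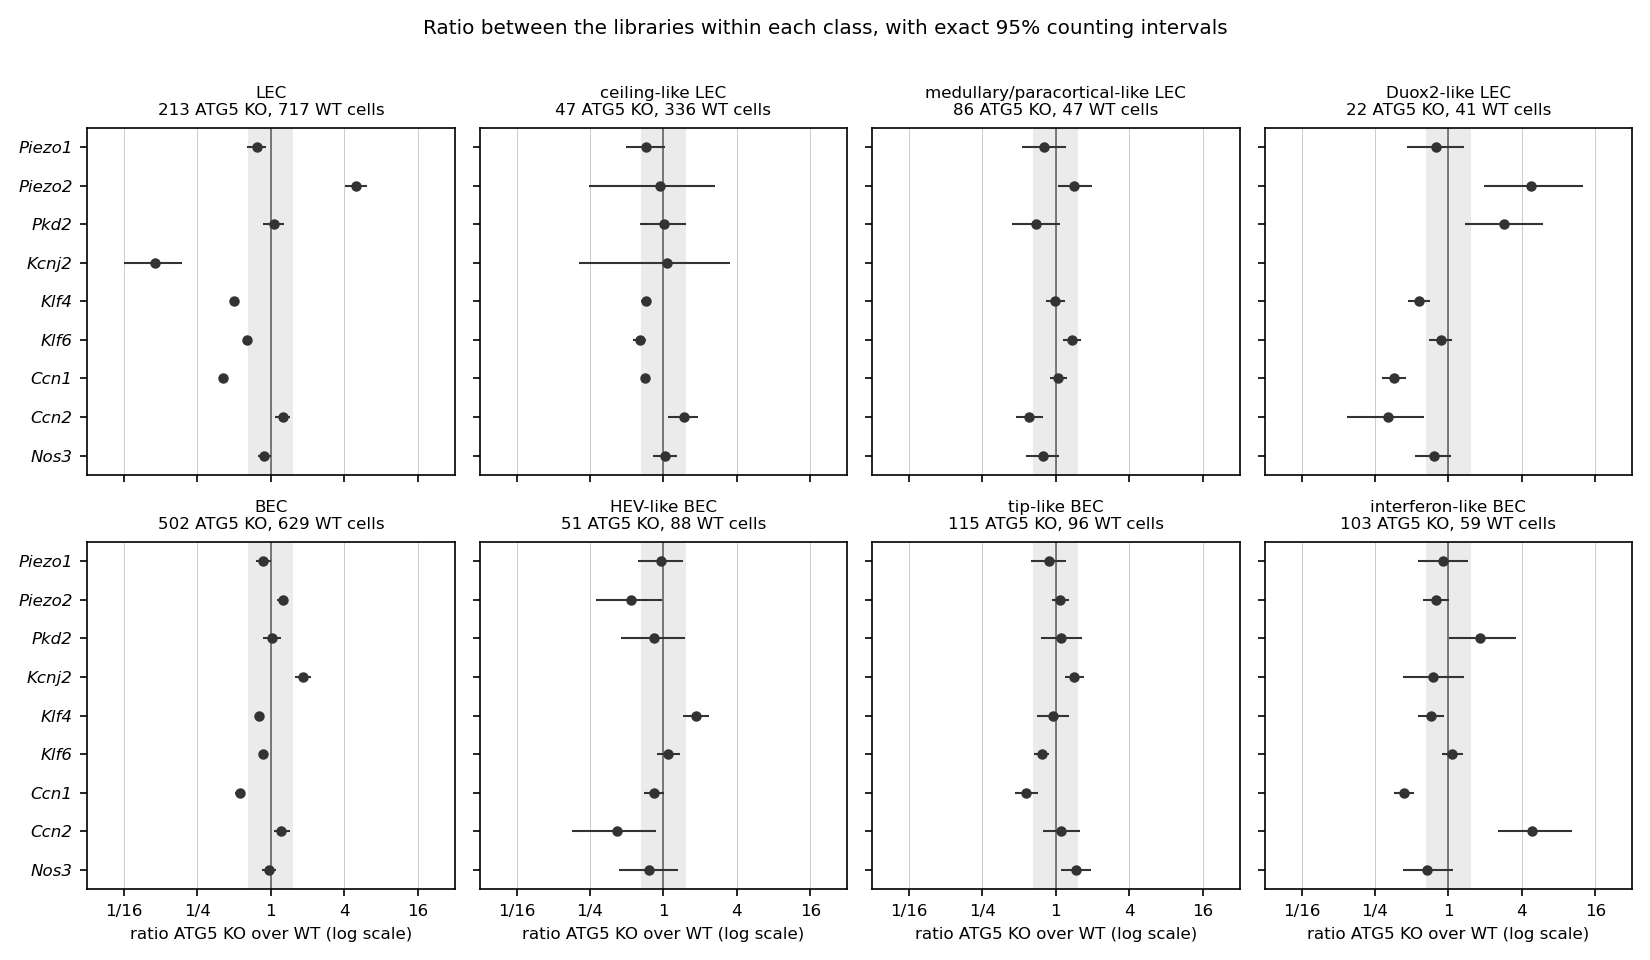
Ratio of the library labelled ATG5 KO over WT for 9 genes in LECs, BECs and 6 of their classes (log axis). Points carry exact 95% counting intervals, the grey band marks less than 1.5-fold, genes with too few UMIs have no point, and Ccn1 lies at 0.407 in LECs but at 1.05 in medullary or paracortical-like LECs.

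Counted at 1.5-fold, 1 of the 9 genes with at least 20 UMIs was higher in KO-labelled LECs (Piezo2) and 4 were lower (Kcnj2, Klf4, Klf6 and Ccn1). Of all 11649 genes counted alike, 11.3% were higher and 13.0% lower. In BECs 1 of 9 was higher (Kcnj2) and 1 lower (Ccn1), where all 11095 genes gave 6.52% and 9.70%. In ceiling-like LECs 0 of 9 were higher and 1 lower (Klf6), beside 14.9% and 16.3% of all genes. In medullary or paracortical-like LECs 0 of 8 were higher and 1 lower (Ccn2), beside 12.6% and 12.4%. In Duox2-like LECs 2 of 8 were higher (Piezo2 and Pkd2) and 3 lower (Klf4, Ccn1 and Ccn2), beside 16.2% and 19.7%. In HEV-like BECs 1 of 8 was higher (Klf4) and 2 lower (Piezo2 and Ccn2), beside 12.3% and 16.6%. In capillary-like BECs 1 of 9 was higher (Nos3) and 5 lower (Piezo2, Klf4, Klf6, Ccn1 and Ccn2), beside 17.4% and 25.5%. In tip-like BECs 0 of 9 were higher and 1 lower (Ccn1), beside 10.6% and 12.6%. In interferon-like BECs 2 of 9 were higher (Pkd2 and Ccn2) and 1 lower (Ccn1), beside 16.8% and 18.8%. In cycling BECs 1 of 9 was higher (Kcnj2) and 3 lower (Klf4, Klf6 and Ccn1), beside 15.3% and 16.2%. Ankrd1 did not reach 20 UMIs in any of these classes. Since the genes were chosen with these ratios known, the counts describe the choice and nothing is read from them.

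**Figure D3:**
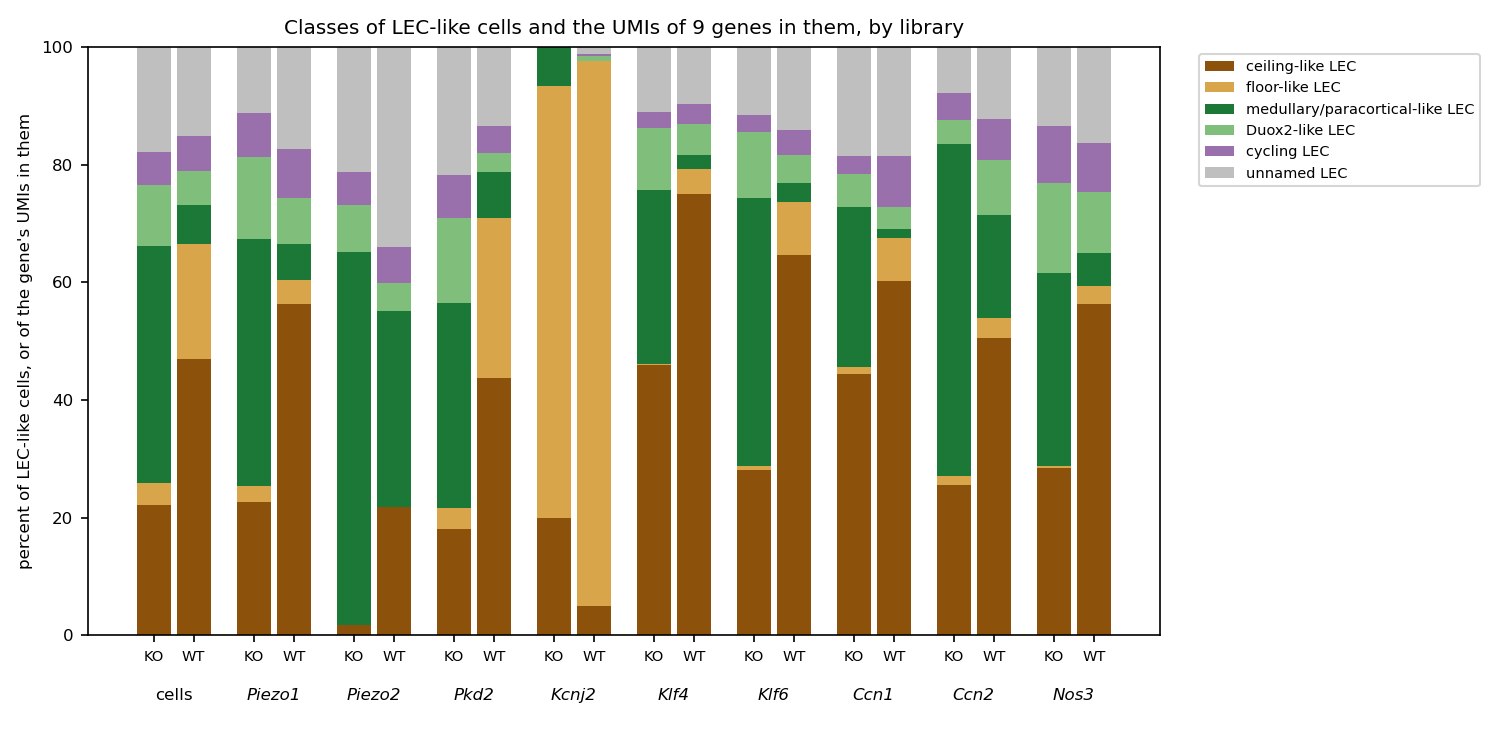
Classes that make up the LEC-like cells (first pair of bars) and the LEC UMIs of each of 9 genes, in percent, with the library labelled ATG5 KO left of WT in each pair. Floor-like cells hold 73.3% and 92.7% of the Kcnj2 UMIs, and medullary or paracortical-like cells hold 63.4% and 33.3% of the Piezo2 UMIs.

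Immediate early and dissociation genes, a list of 40 without the members, differed between the libraries alongside Klf4, Klf6 and Ccn1. All 40 had a lower level in KO-labelled LECs, against 5432 of all 11649 genes, and 28 of them passed 1.5-fold, against 13.0% of all genes, and the median log2 ratio was -1.09 against 0.03 for all genes. Their summed level was 14214 CPM in KO-labelled and 28811 CPM in WT LECs. The list members with the most UMIs were Fos, at 1520 and 3544 CPM, Jun, at 1587 and 3001 CPM, and Zfp36, at 763 and 2349 CPM. Egr3 and Nr4a1 had the ratios farthest from 1, 0.181 (0.13 to 0.246) and 0.190 (0.160 to 0.224). In medullary or paracortical-like LECs, where Klf4 and Ccn1 had ratios near 1, the summed level was 12837 CPM in KO-labelled and 11506 CPM in WT cells. There 22 of the 36 list genes with at least 20 UMIs were higher and 14 lower, with a median of 0.17 against -0.01 for all genes. In the Mmp13- and Ackr4-led ceiling-like sub-cluster, where Klf4 was higher, the sums were 19527 and 15992 CPM, with 24 of 35 list genes over a ratio of 1. In the one led by Ankrd1, Bmp6 and Vldlr, where Klf4, Klf6 and Ccn1 were lower, they were 14725 and 24680 CPM, with 28 of 33 under 1 and a median of -0.56. Ceiling-like LECs as a class had 35 of 40 under 1 (median -0.60), Duox2-like LECs 31 of 33 (-0.86) and unnamed LECs 34 of 37 (-0.82). In HEV-like BECs, where Klf4 was also higher, the sums were 25106 and 24834 CPM. In capillary-like BECs, where Klf4, Klf6 and Ccn1 were lower, they were 6670 and 21924 CPM, with all 37 list genes under 1 and 33 of them past 1.5-fold, against 25.5% of all genes. Interferon-like BECs had 34 of 37 under 1 (median -0.83) and cycling BECs 26 of 33 (-0.80). In interferon-like BECs the ratios were 0.717 (0.566 to 0.912) for Klf4, 1.07 (0.88 to 1.31) for Klf6 and 0.435 (0.361 to 0.525) for Ccn1. Tip-like BECs had 23 of 34 under 1 (-0.43). Their ratios were 0.951 (0.702 to 1.29) for Klf4, 0.764 (0.660 to 0.884) for Klf6 and 0.572 (0.459 to 0.711) for Ccn1. In BECs as a whole 38 of 40 list genes were lower, with a median of -0.48 against -0.02, and the sums were 14098 and 18648 CPM. In the interferon-like BEC sub-cluster filled by both libraries, the immediate early sums were 34362 CPM in KO-labelled and 33061 CPM in WT cells. There the ratios were 0.551 (0.432 to 0.70) for Ccn1, 1.41 (1.09 to 1.83) for Klf4 and 1.06 (0.82 to 1.36) for Klf6. With clusters made without the members and immediate early genes, interferon-like BECs held 58 KO-labelled cells and 1 WT cell. The part of handling in the levels of Klf4, Klf6 and Ccn1 was not tested.

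**Figure D4:**
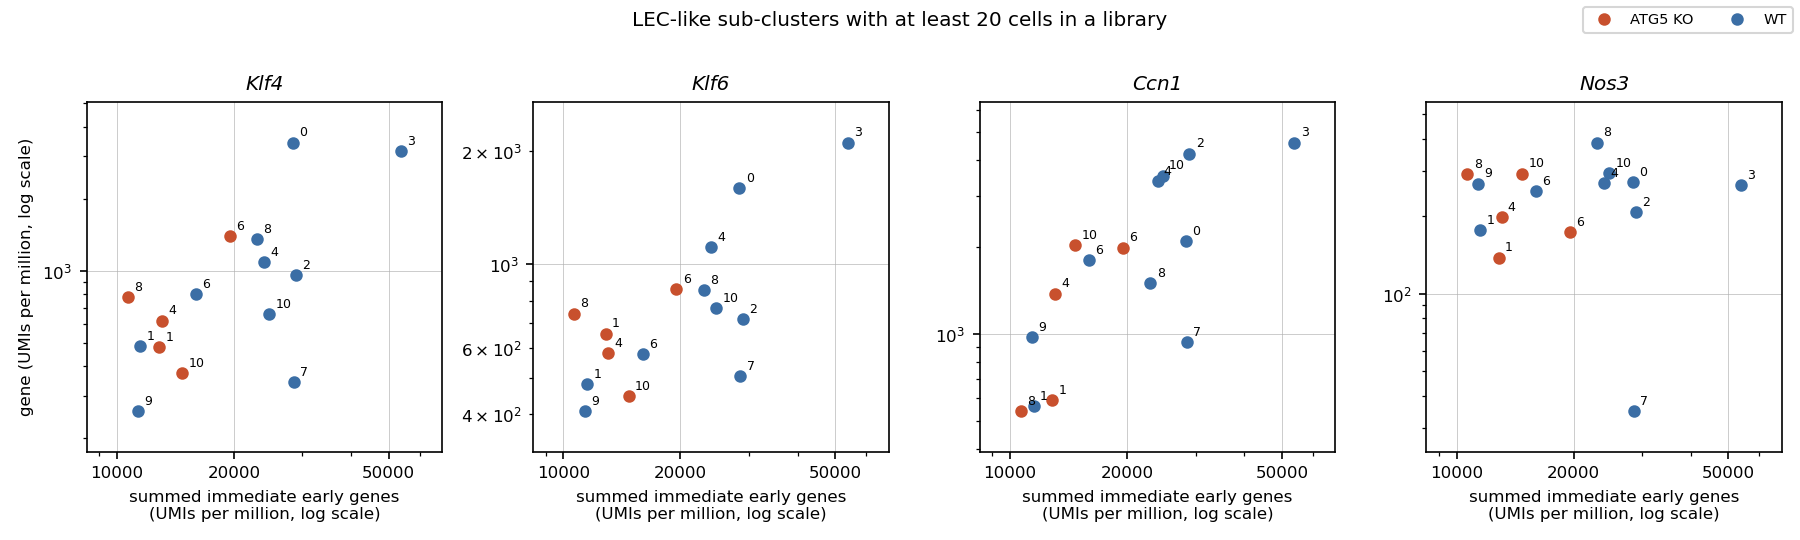
Level of Klf4, Klf6, Ccn1 and Nos3 against the summed level of 40 immediate early and dissociation genes (both in UMIs per 1000000, log axes) in each LEC sub-cluster (number beside the point) with at least 20 cells in a library, red-orange for ATG5 KO and blue for WT. Klf4, Klf6 and Ccn1 tend to be high where the sum is high, with exceptions. The WT floor-like sub-cluster (number 7, 28511 CPM) is an exception and is also the low point of Nos3 at 34.8 CPM. In WT, Klf4 was lower in number 10 than in number 6 (656 and 797 CPM), though the sum was higher in number 10. In KO-labelled cells Klf4 and Klf6 were lower in number 10 (373 and 446 CPM) than in number 1 (479 and 654 CPM), again at a higher sum.

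Of the 8 other Krüppel-like factors with at least 20 LEC UMIs, all 8 were lower in KO-labelled LECs, against 5432 of all 11649 genes, and 6 passed 1.5-fold, against 13.0%, with a median log2 ratio of -0.73 against 0.03 for all genes. Klf2, the best known flow-responsive factor of endothelium, had 435 CPM in KO-labelled and 1090 CPM in WT LECs, a ratio of 0.399 (0.368 to 0.432). Its ratio was 0.792 (0.652 to 0.964) in medullary or paracortical-like and 0.565 (0.50 to 0.637) in ceiling-like LECs. Klf7 and Klf3 had ratios of 0.788 (0.714 to 0.868) and 0.660 (0.572 to 0.759), and Klf16 0.525 (0.327 to 0.808).

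The other mechanosensory channels and receptors lay near the middle of all genes. Of 26 measured, 14 were higher and 12 lower in KO-labelled LECs, with a median log2 ratio of 0.04. Past 1.5-fold were 3 higher and 3 lower, beside 11.3% and 13.0% of all genes. Kdr, the VEGF receptor of the junctional flow-sensing complex, had 1414 and 1346 CPM, and its partner Pecam1 1134 and 1175 CPM. Trpv4, a stretch- and heat-gated calcium channel, had 6.92 CPM in KO-labelled and 17.5 CPM in WT LECs, on 11 and 101 UMIs. Of the 26 laminar flow response genes measured, the median log2 ratio was -0.23, with 10 over and 16 under a ratio of 1, and 3 higher and 9 lower past 1.5-fold, beside 11.3% and 13.0% of all genes. Besides Klf2, that list gave Thbs1 (1066 and 1081 CPM), Cav1 (594 and 809 CPM), and the low genes Sele (5.04 and 23.6 CPM) and Ptgs1 (11.3 and 31.6 CPM). Among 25 genes of lymphatic flow and valves, the median was -0.15, with 11 over and 14 under 1. Of these, 3 were higher and 7 lower past 1.5-fold, beside 11.3% and 13.0% of all genes. Besides Prox1, that list gave Fn1, a matrix gene of valves, at 1889 and 734 CPM, and Angpt2, a Tie2 ligand, at 555 and 128 CPM. Fn1 was a leading gene of the LEC cluster led by H19, Lyve1 and Mrc1, and Angpt2 of the like cluster at Leiden resolution 2. Lyve1 and Mrc1 are markers used here for medullary or paracortical-like LECs, the class with the larger share in the KO-labelled library. The part of this makeup in the Fn1 and Angpt2 totals was not tested.

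The other Hippo targets had a median near that of all genes. Of 23 other YAP, TAZ and TEAD targets measured in LECs, 10 lay over and 13 under a ratio of 1, and their median was -0.04 in log2. Of the 23, 5 passed 1.5-fold upward and 5 downward, beside 11.3% and 13.0% of all genes. Crim1 had 902 CPM in KO-labelled and 783 CPM in WT LECs, Ptpn14 310 and 406 CPM, Amotl2 227 and 317 CPM and Myof 61.7 and 121 CPM. Of 18 genes of the Hippo machinery, the median was -0.06, with 7 over and 11 under 1, and Wwtr1, which encodes TAZ, had 495 and 487 CPM. Of 15 targets of the actin-regulated factors SRF and MRTF, the median was -0.12, with 6 over and 9 under 1, and Srf itself had 13.2 and 25.2 CPM. Among 4 other CCN genes only Ccn3 and Ccn5 reached 20 UMIs: Ccn3 had 18.9 CPM (30 UMIs) in KO-labelled and 1.74 CPM (10 UMIs) in WT LECs.

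Of 15 regulators of nitric oxide, 3 lay over and 12 under a ratio of 1 (median -0.13), against 6217 over and 5432 under for all genes (0.03). Past 1.5-fold were 0 higher and 2 lower, beside 11.3% and 13.0% of all genes. Hsp90ab1, a chaperone gene, had 2610 and 2855 CPM, Gucy1b1, a subunit of the nitric oxide receptor, 9.44 and 27.1 CPM, and Nostrin, which encodes a trafficking partner of the synthase, 10.7 and 26.0 CPM. Of 4 endothelial potassium channel genes measured beside Kcnj2, 2 were higher and 2 lower. Kcnj8 and Abcc9, which encode the pore and regulatory subunits of an ATP-sensitive channel, had ratios of 2.10 (1.39 to 3.15) and 4.70 (3.12 to 7.13). Kcnj8 is also a marker used here for paracortical LECs, the class with the larger share in the KO-labelled library, and Abcc9 is a mural cell marker used here. In medullary or paracortical-like LECs 3 potassium channel genes beside Kcnj2 were measured, with 1 higher and 2 lower (median -0.07). Past 1.5-fold were 0 higher and 1 lower, beside 12.6% and 12.4% of all genes. The part of makeup or mural RNA in the LEC ratios was not tested. Of 28 interferon-stimulated genes, 25 lay over and 3 under 1 in LECs (median 0.82), against 6217 over and 5432 under for all genes. Medullary or paracortical-like LECs had 26 over and 2 under (median 1.34), whereas ceiling-like LECs had 11 and 15 (-0.22), Duox2-like LECs 9 and 14 (-0.15) and unnamed LECs 11 and 12 (-0.03).

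The likeness of patterns was measured as Pearson's r of log2(CPM + 10) over 24 points, the 10 KO-labelled and 14 WT endothelial classes with at least 20 cells in their own library, among 8103 genes. Points of a library share its handling and depth. Nearest to Klf4 were Klf2 (0.90), Jmy (0.82) and Ccn1 (0.81), and nearest to Klf6 were Pdlim3 (0.77), Sox4 (0.76) and Klf4 (0.75). Among the nearest to Ccn1 were Rgs16 (0.86) and Cd24a (0.85). Piezo2 was nearest to the basement membrane collagens Col4a1 (0.84) and Col4a2 (0.84) and to Abcg1 (0.84), and it ran against Klf4 (-0.59) and Ccn1 (-0.54). Kcnj2 was nearest to Sez6l2 (0.76), Nckap5l (0.75) and Cd44 (0.75). Piezo1 was nearest to Pkn3 (0.83), Ece1 (0.83) and Card10 (0.79), and Nos3 to Lrrc57 (0.83), Lmcd1 (0.82) and Ltbp4 (0.82). Piezo1 and Piezo2 had an r of 0.17, and Piezo1 and Nos3 one of 0.61. Pkd2 was nearest to Bin3 (0.73) and Ccn2 to Glrx3 (0.73).

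Pairs of genes were also counted in single cells. In tip-like BECs at a common depth, 33 of 96 KO-labelled cells (34.4%) and 22 of 81 WT cells (27.2%) had both Piezo2 and Kcnj2. Of the KO-labelled cells with Piezo2, 33 of 66 had Kcnj2, against 43.3% of those without Piezo2, and in WT the shares were 40.0% and 38.5%. In ceiling-like LECs 48.8% (32.9 to 64.9) of 41 KO-labelled and 70.0% (64.7 to 75.0) of 320 WT cells had both Klf4 and Ccn1. Klf4 alone or with Ccn1 was found in 24 of these KO-labelled and 266 of these WT cells. Of the KO-labelled cells with Klf4, 83.3% had Ccn1, against 82.4% of those without Klf4, and in WT the shares were 84.2% and 75.9%. In medullary or paracortical-like LECs 7.23% of 83 KO-labelled and 11.4% of 44 WT cells had both Piezo1 and Piezo2.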

How the data were processed

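Single cells of pooled inguinal nodes were captured and sequenced on the BD Rhapsody system, 1 library per genotype. Per the file headers, the deposited tables come from the BD Rhapsody WTA Analysis Pipeline 1.11 on the mm10 build, and the pipeline's error-corrected molecule counts per barcode and gene were used. They are raw counts, not normalized, and intronic reads were kept. The tables hold unfiltered barcodes, and 0 of their value columns belong to other samples. Whether the counting used strand is not given in the sources used here, so overlapping genes on opposite strands are named beside the values they touch.

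Barcodes were kept down to the steepest bend of the cumulative UMI curve, 4355 in the KO-labelled library (at least 1295 UMIs) and 4064 in WT (at least 1281). Cells needed 200 genes and at most 25% mitochondrial UMIs, and Scrublet calls (31 and 27 cells) were left out. Cells were clustered with scanpy 1.11.5 (2000 variable genes, 30 components, Leiden resolution 1), and LECs and BECs were clustered again. Classes took their names from marker lists, while the naming scores were set after the clusters were seen, so class shares rest on rebuilt names. Sub-clusters led by lymphocyte or mural genes (3 sub-clusters) stayed out. Of the members, 6 were among the variable genes used to cluster LECs and BECs.

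UMIs were summed per class and library and divided by the class total without mitochondrial genes. Levels carry exact Poisson intervals, ratios exact conditional binomial intervals and shares exact Clopper-Pearson intervals, all at 95%. PCR and capture make them cover counting error only. Cells with under 3000 UMIs were left out of the thinned shares. The ratio step was tested on simulated data. No test between genotypes was made, since the design has 1 library per genotype. Alternatives changed the mitochondrial limit, scaling, cell weights, doublets, sex, barcodes called, clustering genes and resolution. A list gene counted as measured with at least 20 UMIs over both libraries. Named list genes are the 3 with the most LEC UMIs and the 2 with the log2 ratio farthest from 0 among those with at least 50 UMIs, and named like genes the 3 with the highest r, some of which are not reported here. Members, lists and markers were chosen with earlier results of these data known. Gene positions come from GENCODE M21 (GRCm38, the mm10 assembly).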

Additional observations from a re-analysis of the deposited data

Results flagged for a closer look

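Kcnj2 stood out because its ratio of the library labelled ATG5 KO over WT ran in opposite directions in the lymphatic and blood endothelium, at 0.113 in LEC-like and 1.83 in BEC-like cells. With 1 library per genotype the difference between them was not tested. Klf4 ran in opposite directions among BEC classes, at 1.85 in HEV-like cells and at 0.335 in capillary-like and 0.509 in cycling cells, which was not tested either. Ccn2 was at 4.85 in interferon-like and at 0.415 in HEV-like BECs, with 9 KO-labelled UMIs in HEV-like and 10 WT UMIs in interferon-like cells, and that difference was not tested.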

How the results depend on the processing

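No paired analysis was possible because each genotype has 1 library. Of the LEC ratios of the library labelled ATG5 KO over WT under the alternatives, 87 stayed within the counting interval and 29 left it, and the causes were not tested. With each cell weighted equally the ratio was 0.465 for Ccn1 and 1.52 for Ccn2. With at most 10% mitochondrial UMIs it was 0.63 for Piezo1, 6.80 for Piezo2, 0.584 for Klf4, 0.685 for Klf6 and 0.452 for Ccn1. Among male cells it was 3.59 for Piezo2, 0.724 for Klf4, 0.787 for Klf6, 0.615 for Ccn1 and 0.858 for Ccn2. Among female cells it was 0.0586 for Kcnj2, 0.347 for Klf4, 0.503 for Klf6 and 0.198 for Ccn1. As the mean over 3 niche classes it was 1.86 for Piezo2, 0.741 for Klf4, 0.911 for Klf6, 0.642 for Ccn1 and 0.658 for Ccn2, and the immediate early median was -0.43. Without the 5 LEC sub-clusters of mostly WT cells, an alternative chosen after seeing the data, it was 0.617 for Piezo1, 3.02 for Piezo2, 0.598 for Kcnj2, 0.677 for Klf4, 0.830 for Klf6, 0.441 for Ccn1, 0.85 for Ccn2 and 0.689 for Nos3. The WT ratio of LECs over BECs with at most 10% mitochondrial UMIs was 0.0521 for Piezo2, 1.33 for Kcnj2 and 1.56 for Nos3. At Leiden resolution 2 the Pkd2 ratio in interferon-like BECs turned to 0.785. Classes with under 20 cells in a library, all 8 female classes counted among them, gave no value. The 8 KO-labelled floor-like LECs limit every value of that class.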
